A study of Mus musculus with 2 samples.

Results

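IR-61 is a near-infrared fluorescent heptamethine cyanine dye that gathers in mitochondria, and its effect on transcripts was measured in RAW264.7 cells, an established macrophage line. The genes described here are those that were well measured on both arrays and higher with IR-61 by at least 1 on the log2 scale of the authors' deposited table. They were chosen on 1 probe for each gene, the one with the highest mean deposited value, which had to be at least 6 and well above background on both arrays. A few genes were left out by name, namely *Dbp*, *Tef*, *Vldlr*, *Fcrl1* and symbols starting with *Ccl*, *Prl2c* or *Hist*, which removed 6 genes past the threshold (*Ccl3*, *Dbp*, *Prl2c5*, *Vldlr*, *Fcrl1* and *Prl2c1*). The rule gave 184 genes of 20659 named on the array, of which 13908 passed both limits on signal. With these 6 included, 1.37% of the 13908 genes were higher by 1 or more, and 1.36% (189 genes) were lower by as much. Nothing can be read from the first share, since the rule used that difference.

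The RAW264.7 line was raised from an Abelson murine leukemia virus-induced tumor of an adult male BALB/c mouse, and both cultures share this origin. One culture was treated with vehicle and the other with IR-61, each for 24 h. The dose was 10 μM, which the labels do not give. RNA from each culture was hybridized to 1 single-colour Agilent array of 44397 spots, so no test between the conditions was possible, and every difference below describes this pair of cultures. In RNA from a whole culture, a larger share of cells in a given state and more RNA per cell cannot be told apart.

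Macrophages are phagocytes that sense their surroundings through surface receptors for chemokines, nucleotides, sialic acids and adhesion ligands. They also recycle iron, inactivate lipid mediators, and secrete cytokines, growth factors and matrix proteins. Many of these functions rest on gene families with small, lineage-restricted members, such as the SIRP, Siglec and C-type lectin receptors, whose members often lie side by side in the genome.

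Values are processed signals in arbitrary units, from which a log2 difference (IR-61 minus vehicle) was taken after subtracting from each array its 75th percentile. This percentile was 10.30 for vehicle and 10.79 for IR-61 in log2 units, so the IR-61 array was brighter as a whole, and folds below are smaller than the ratio of the raw signals. On this scale 183 of the 184 genes had a value. Their median difference was 1.23, or 2.35-fold, and the range ran from 0.98 (1.97-fold, *Kifc2*) to 2.23 (4.70-fold, *A530064D06Rik*). The median over all genes past both limits was 0.09 with an SD across genes of 0.43, and 1.49% of 13902 genes were higher by 1 or more on this scale. Only 9 of the 183 reached 2, 39 reached 1.5, and 5 stayed just short of 1, since the deposited table is scaled in another way. *D2hgdh*, an enzyme that oxidizes D-2-hydroxyglutarate, had no value because the only spot of its probe on the IR-61 array was an outlier.

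**Figure D1:**
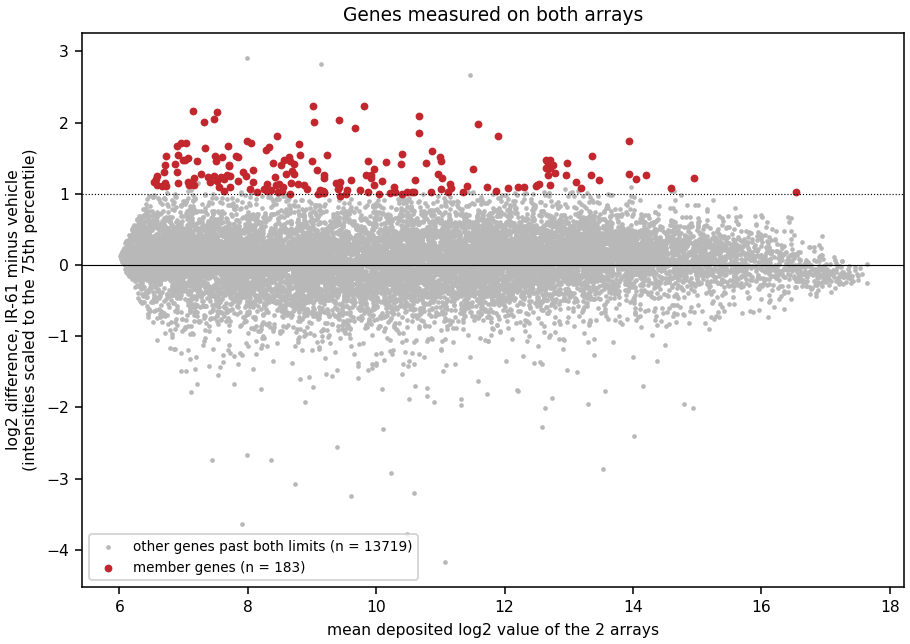
Log2 difference (IR-61 minus vehicle, intensities scaled to the 75th percentile) against the mean deposited log2 value for the genes past both limits, with 1 array per condition. The 183 genes described (red) lie between 0.98 and 2.23 across the signal range, around a median of 1.23, while the median of all genes is 0.09.

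The only error available was that between spots of probes printed several times on an array. Its SD on the log2 scale was 0.27 for vehicle and 0.24 for IR-61 in dim probes (log2 intensity under 6), and 0.07 and 0.06 in bright ones (above 10). From these SDs, the expected SD of a difference ranged from 0.03 to 0.30 among the 183 genes, with a median of 0.23, and the ratio of difference to expected SD was smallest in *Dmxl1*, at 3.65. A ratio above about 3 follows from the choice of genes with a difference of at least 1, and it supports nothing. This error covers noise within an array and leaves out the spread between cultures. One gene was printed often enough to be seen directly. *Slc26a11*, a sulfate and anion transporter, gave scaled log2 values of 1.26 ± 0.06 (SD, n = 9 spots) with vehicle and 2.73 ± 0.07 (SD, n = 9 spots) with IR-61. These spots come from 1 culture each, and the gene was chosen for its difference.

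The share of genes higher with IR-61 differed with signal. Of genes with a mean deposited value from 6 to 8, 1.78% were higher by 1 or more, and from 8 to 10 the share was 2.24%. It was 1.13% from 10 to 12 and 0.658% above 12. The share that was lower by as much was 1.40%, 1.58%, 1.80% and 0.877% in the same bands, so that from 10 upwards more genes were lower than higher. Accordingly, 55 of the 184 genes lay in the dimmest band and 29 in the brightest.

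The threshold cut through a continuous range. Just inside it, with deposited differences of at most 1.01, lay *Stk3*, *Pramel34*, *Rap2a*, *Thbs3* and *Cbfa2t3*. The nearest genes outside it were *Dut* at 0.998, *Ndrg4* at 0.992, *Cd302* and *Trip12* at 0.990, and *Rassf5* at 0.989. On the scaled intensities *Rassf5* differed by 1.07 and *Cbfa2t3* by 0.99, so that the sides of the threshold were exchanged for this pair.

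By known role, the genes spread over several groups, which were drawn up after the values had been seen. Receptors, adaptors and other genes of immune cells made up 20 of them, with a median difference of 1.27. How many measured genes have each role was not counted, and of the listed myeloid surface receptors 0 of 31 were among the genes chosen. Secreted ligands with their antagonists and receptors numbered 15 (median 1.46), matrix and adhesion proteins 13 (1.31), regulators of transcription and chromatin 18 (1.24), and actin, contraction and small GTPase genes 13 (1.29). There were 10 transport genes (1.38), 21 genes of lipid, sugar and xenobiotic metabolism (1.22) and 5 of the DNA damage response (1.40). The remaining 69 genes (1.17) had other roles or none that was assigned. Of all 184 genes, 180 were protein-coding and 4 were long non-coding RNAs (*Kantr*, *AU022793*, *Gm16062* and *Mirt1*).

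**Figure D2:**
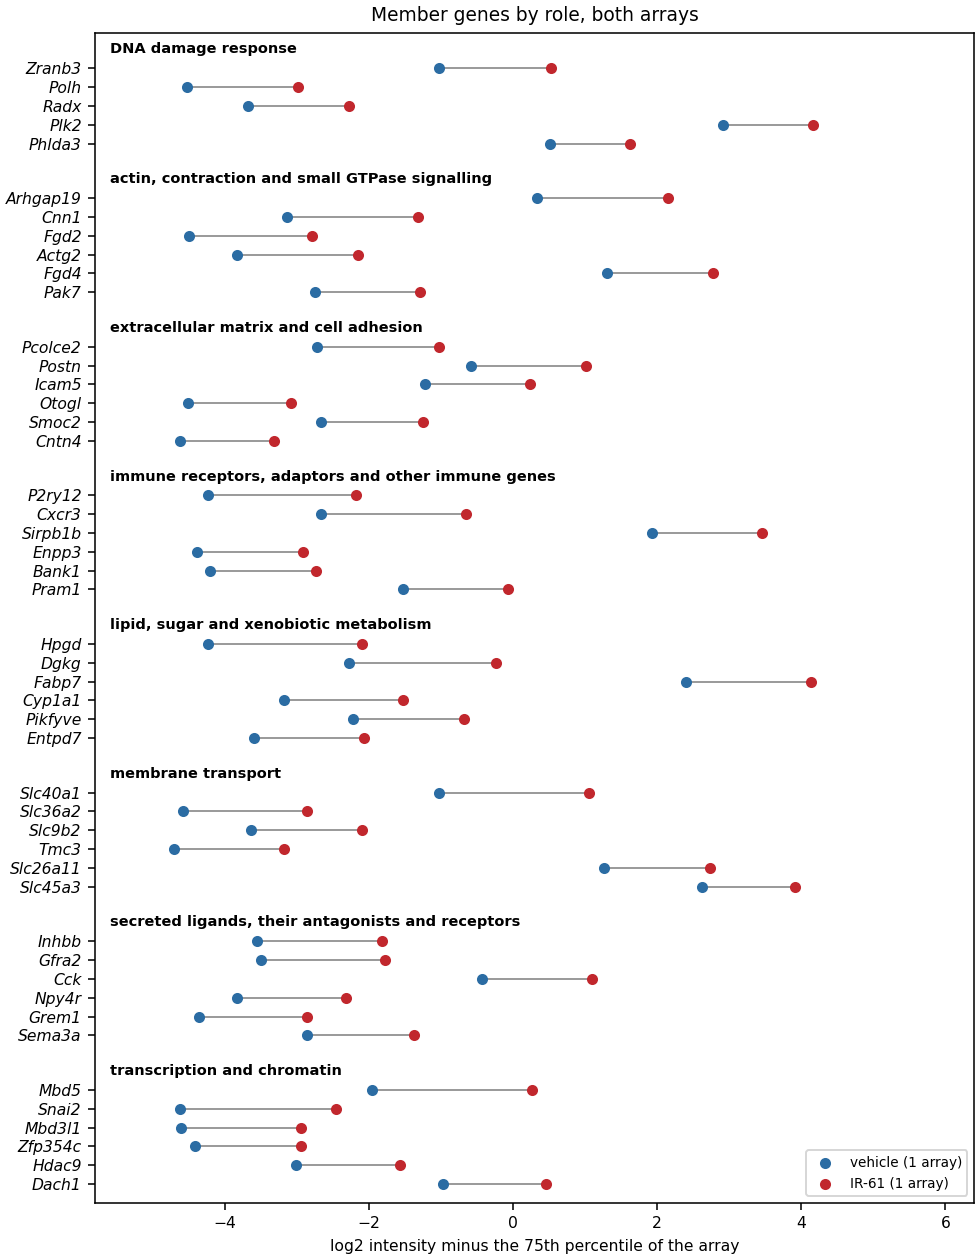
Scaled log2 intensity (log2 intensity minus the 75th percentile of the array) with vehicle (blue) and with IR-61 (red) for up to 6 of the genes with the largest differences in each of 8 roles, with 1 array per condition. In every gene shown the IR-61 value lies to the right, and the gap is widest in *Mbd5*, at 2.23.

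Among immune receptors, *P2ry12*, the ADP receptor of platelets and microglia, had the largest difference. Its signal was 67.3 with vehicle and 391 with IR-61, a difference of 2.05 ± 0.23 (expected SD from spots) or 4.14-fold. The chemokine receptor *Cxcr3*, which binds interferon-induced chemokines, had a signal of 199.9 with vehicle and 1130 with IR-61, or 4.03-fold. Both probes had low signals with vehicle, where the spots of a probe spread more than in bright ones. *Adgre1*, by contrast, was read by a bright probe. It encodes the F4/80 antigen by which mouse macrophages are recognized, and its signal was 52489 with vehicle and 149992 with IR-61 (2.04-fold).

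Several other receptors of phagocytes, picked after their values were seen, had bright probes and were more than 2-fold higher with IR-61. Their relatives did not all differ alike. Of measured *Siglec* symbols 2 of 6 were above 0, and of *Lilr* symbols 0 of 3. Of *Clec* symbols 16 of 20 were above 0, while *Clec4e* was at −1.87. In the list of myeloid surface receptors 14 of 31 were above 0. *Siglecf*, a sialic acid-binding inhibitory receptor, had a signal of 3334 with vehicle and 12435 with IR-61 (2.66-fold). *Vsig4*, the complement receptor of resident macrophages, went from 3137 to 9669 (2.20-fold), and *Clec4a1*, a C-type lectin receptor, from 3089 to 9420 (2.17-fold). *Itga4*, an integrin alpha subunit by which leukocytes bind endothelium, gave 5244 with vehicle and 17630 with IR-61 (2.40-fold). *Itgal*, a subunit of LFA-1, had a dimmer probe, at 400.1 and 1278 (2.28-fold). Other members of the group were *Clec12a*, *Treml1*, *Lifr*, *Bank1*, *Pram1*, *Enpp3*, *Aif1* (the cytosolic calcium-binding protein Iba1), *Cd72* and the interferon-induced cytosolic enzyme *Oas2*, with differences from 1.07 (*Cd72*) to 1.47 (*Enpp3*). Under normexp background correction *Enpp3*, *Treml1*, *Lifr*, *Bank1* and *Cd72* were under 1, at 0.79, 0.83, 0.86, 0.88 and 0.97. *Clec12a*, *Aif1*, *Oas2* and *Pram1* were at 1.02, 1.03, 1.12 and 1.36. Other probes of *Lifr* differed by 0.29 and 0.44, that of *Bank1* by 0.89 and that of *Cd72* by 0.98.

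Members of the signal-regulatory protein family lay close together on chromosome 3, and 3 of them were among the genes chosen. *Sirpb1b* had a signal of 4826 with vehicle and 19514 with IR-61 (2.88-fold). Another probe of *Sirpb1b* went from 1121 to 2737, a difference of 0.80 ± 0.09 (expected SD from spots) beside 1.53. *Sirpb1a* went from 3138 to 11286 (2.56-fold) and *Gm5150* from 466 to 1353 (2.07-fold). The SIRP beta proteins are activating receptors, whereas *Sirpa*, the inhibitory receptor for the "do not eat me" signal CD47, differed by 0.35 (53079 with vehicle and 94875 with IR-61). *Gm9733*, another relative, did not pass the limits, with signals of 2.83 and 7.16. *Sirpb1a* and *Sirpb1b* are next to each other, and the gene *Sirpb1c*, for which no array value is given here, stands between *Sirpb1b* and *Gm5150*.

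The sequences before the start sites of the 3 genes are closely alike, and the last 120 bases of each are shown for that reason. They come from RefSeq on assembly GRCm38.p6, minus strand, 5′ to 3′, and capitals mark runs of 12 or more bases that also occur in the 250 bases upstream of another of the 3 genes.
Sirpb1a, chr3:15426428-15426547: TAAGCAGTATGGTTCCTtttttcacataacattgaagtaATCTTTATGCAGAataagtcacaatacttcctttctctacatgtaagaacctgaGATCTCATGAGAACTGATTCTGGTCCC
Sirpb1b, chr3:15575066-15575185: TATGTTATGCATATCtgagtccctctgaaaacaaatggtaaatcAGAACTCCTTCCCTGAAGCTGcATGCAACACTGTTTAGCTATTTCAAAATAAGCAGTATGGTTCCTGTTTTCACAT
Gm5150, chr3:16006333-16006452: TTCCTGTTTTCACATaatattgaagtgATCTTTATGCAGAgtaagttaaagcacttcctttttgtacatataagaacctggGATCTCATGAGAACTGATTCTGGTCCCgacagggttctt
Over the upstream 250 bases, the best local alignment of *Sirpb1a* and *Sirpb1b* had 95.5% identical columns of 157. That of *Sirpb1a* and *Gm5150* had 87.0% of 238, and that of *Sirpb1b* and *Gm5150* 87.6% of 145. The closest pair was *Sirpb1b* with *Sirpb1c*, at 97.6% of 209. Genes this similar may share array signal, and whether each probe read its own transcript alone was not tested, since probe sequences were not used here.

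Secreted ligands with their antagonists and receptors had a median of 1.46. Nothing can be read from the order of the medians of the roles. The rule had cut the values, and the roles were drawn up after these had been seen. *Inhbb*, the beta B subunit of activin and inhibin, gave 107 with vehicle and 501 with IR-61 (3.33-fold), and *Gfra2*, the co-receptor for neurturin, 112 and 516 (3.29-fold). The group also held neuropeptides and hormones. *Cck*, which encodes cholecystokinin, had a signal of 940.4 with vehicle and 3787 with IR-61 (2.87-fold), *Pthlh*, the parathyroid hormone-related protein, 3125 and 11814 (2.70-fold), and *Penk*, the enkephalin precursor, 309.9 and 896 (2.06-fold). Of these, *Pthlh* had a bright probe on both arrays, so that its difference has the smaller expected error. Growth factors included *Fgf7* (2.75-fold), *Fgf9* (2.20-fold) and *Pdgfc* (2.09-fold), and the antagonists *Grem1*, which binds BMPs, and *Dkk2*, which acts on Wnt receptors, were 2.83- and 2.39-fold higher. With normexp background correction the differences of *Fgf9*, *Pdgfc*, *Grem1*, *Dkk2* and *Penk* were under 1, at 0.58, 0.89, 0.83, 0.88 and 0.84. That of *Fgf7* was 1.23.

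Matrix and adhesion genes included several that fibroblasts express strongly. *Pcolce2*, an enhancer of procollagen processing, had a signal of 191 with vehicle and 870.2 with IR-61 (3.25-fold). *Postn*, the matricellular protein periostin, gave 847 and 3586 (3.02-fold), and *Nid1*, a basement membrane linker, 1199 and 3715 (2.21-fold). Neural adhesion molecules (*Icam5*, *Cntn4*, *Nrcam* and *Ncam1*) were among them too, with differences of 1.14 to 1.45. With normexp background correction *Cntn4*, *Nrcam* and *Ncam1* were under 1, at 0.66, 0.80 and 0.78, and *Icam5* was at 1.47. Among contractile and GTPase genes, *Cnn1*, the smooth muscle calponin, gave 144 and 708 (3.51-fold), and *Actg2*, the enteric smooth muscle actin, 89.0 and 399.5 (3.20-fold). *Arhgap19*, a GTPase-activating protein that acts in cell division, stood at 1592 and 7853 (3.52-fold). *Fgd2* and *Fgd4*, both exchange factors for Cdc42, differed by 1.71 and 1.47, and *Myl9*, the myosin regulatory light chain of smooth muscle, by 1.02. Under normexp background correction *Fgd2* and *Myl9* were under 1, at 0.97 and 0.99. *Actg2* was at 1.04 in place of 1.68 and *Cnn1* at 1.32 in place of 1.81, while *Fgd4* was at 1.37 and *Arhgap19* at 1.75.

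Because such genes mark fibroblasts as well, the marker list of that cell type was read beside them. All 6 fibroblast markers were well above background on both arrays. Of these, 4 were higher with IR-61 (*Col1a1* by 0.62, *Pdgfra* by 0.33, *Lum* by 0.17 and *Col1a2* by 0.10), and *Dcn* (−0.09) and *Col3a1* (−0.34) were lower only after scaling, since their raw signals were higher with IR-61. Their summed signal was 51.3 with vehicle and 62.3 with IR-61, in multiples of the 75th percentile, and its brightest probe, that of *Col1a1*, gave 27148 and 58670. No fibroblast marker was at 0, and the part of fibroblast-like expression in these differences was not tested.

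Macrophage markers were present and did not move as one. Of 9 listed markers 8 were named on the array, and all 8 were well above background on both arrays. *Adgre1* (1.03), *Fcgr1* (0.99), the high-affinity IgG receptor, *Itgam* (0.65), the CD11b integrin subunit, and *Csf1r* (0.06) were higher. *Spi1*, which encodes the myeloid transcription factor PU.1, and *Cd14*, the LPS co-receptor, were lower, by −0.83 and −0.98, while *Mrc1* (−0.02) and *Lyz2* (−0.18) were lower only after scaling. The summed signal of the 8 was 162 with vehicle and 215 with IR-61, and the probe of *Csf1r* gave 95036 and 139205. Most of the increase of the sum was fixed by the choice of genes, since it came from *Adgre1* (52489 with vehicle and 149992 with IR-61). Markers of T cells (5 of 5 well above background, summed 1.92 and 2.0), B cells (5 of 5, 0.717 and 0.421), endothelial cells (3 of 4, 2.42 and 2.34), epithelial cells (3 of 4, 0.207 and 0.151) and granulocytes and mast cells (6 of 6, 9.59 and 11.5) were also read. For the other types than B cells, the brightest probes were those of *Cd4*, *Kdr*, *Krt18* and *Elane*, and probe signals do not rank transcripts by abundance.

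Regulators of transcription and chromatin were led by *Mbd5*, which carries a methyl-CpG-binding domain. Its signal was 324 with vehicle and 2131 with IR-61, a difference of 2.23 ± 0.19 (expected SD from spots) or 4.69-fold. *Snai2*, a zinc finger repressor of epithelial genes, was dim, at 51.3 and 322 (4.48-fold). A few mesenchymal and developmental homeobox genes were also in this group, and how many such genes were measured was not counted. Of the symbol families counted, *Hox* gave 0 of 15, *Sox* 0 of 10 and *Fox* 0 of 29. *Prrx1* gave 299 with vehicle and 874 with IR-61 (2.08-fold), *Prrx2* 835 and 2384 (2.03-fold), and *Meis2* 309 and 871 (2.01-fold). *Hdac9*, a class IIa histone deacetylase, *Dach1*, a transcriptional corepressor, and *Nfatc2*, a calcium-regulated factor of immune cells, differed by 1.44, 1.42 and 1.09. Under normexp background correction *Prrx2*, *Meis2* and *Nfatc2* were under 1, at 0.998, 0.84 and 0.98. *Prrx1* was at 1.06, *Hdac9* at 1.13, *Snai2* at 1.22 and *Dach1* at 1.40.

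Metabolic genes included enzymes that degrade lipid mediators and lipid-binding proteins. *Hpgd*, the dehydrogenase that inactivates prostaglandins, had a signal of 67.0 with vehicle and 415 with IR-61 (4.42-fold). *Dgkg*, a diacylglycerol kinase, gave 262 and 1507 (4.11-fold), and *Fabp7*, a fatty acid-binding protein, 6701 and 31276 (3.33-fold). The *Fabp7* probe was bright on both arrays. *Cyp1a1*, the xenobiotic-metabolizing target of the aryl hydrocarbon receptor, was 3.15-fold higher, at 139 and 616, and *Mgst2*, a microsomal glutathione transferase, 2.87-fold, at 182 and 730.2. In energy metabolism, *Pdp1*, the phosphatase that activates pyruvate dehydrogenase, gave 5843 and 18712 (2.28-fold), and *Pfkfb3*, a regulator of glycolysis, 3546 and 10818 (2.18-fold). *Fnip2*, a folliculin-interacting protein that takes part in nutrient sensing, also had a bright probe, at 16119 and 52548 (2.32-fold).

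The transport genes were headed by *Slc40a1*, which encodes ferroportin, the iron exporter by which macrophages return iron to the blood. Its signal was 617 with vehicle and 3692 with IR-61, a difference of 2.09 ± 0.19 (expected SD from spots) or 4.27-fold. *Slc36a2*, a proton-coupled amino acid transporter, was 3.29-fold higher but dim, at 53.0 and 244. With normexp background correction its difference was 0.99 in place of 1.72. *Slc45a3* was bright, at 7793 and 26635 (2.44-fold). Solute carriers were, of the symbol families counted, the only one with more than 5 genes among those chosen, at 8 of 254 measured (3.15%), beside 1.37% of all genes, and 6 others of the family were lower by as much. *Zfp* symbols gave 3 of 320 (0.938%), headed by *Zfp354c* (1.48), and numbered *Gm* or *Rik* symbols 5 of 595 (0.840%). The *Zfp354c* probe was dim, and its difference was 0.73 with normexp background correction. Another probe of that gene differed by 0.39. Families with 2 genes were *Itg* (2 of 18), *Clec* (2 of 20), *Arhgap* (2 of 30), *Nr* (2 of 45), *Fbx* (2 of 54), *Rnf* (2 of 64) and *Cd* (2 of 177). Of these families, 6 *Cd* symbols, 1 *Itg*, 1 *Clec* and 1 *Nr* symbol were lower by as much.

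The DNA damage group consisted of 5 genes. *Plk2*, a stress-induced polo-like kinase, was bright, with a signal of 9493 with vehicle and 31890.4 with IR-61 (2.40-fold). *Phlda3*, an inhibitor of Akt and a target of p53, gave 1808 and 5436 (2.14-fold). *Zranb3* (2.94-fold) and *Radx* (2.64-fold) act at stalled replication forks, and *Polh* (2.92-fold) is the polymerase that copies past ultraviolet damage. The signals of *Radx* (98.9 and 366) and *Polh* (54.7 and 224) were low, and with normexp background correction, which adds an offset to every signal, their differences were 0.82 and 0.71 in place of 1.40 and 1.55. Of 31 measured genes in the replication and repair list, 0 were among the genes chosen. In the list of cell cycle inhibitors and quiescence 6 of 16 genes were above 0. There *Cdkn1a* (−0.98) and *Btg2* (−1.35) were lower and *Ccng1* stood at 0.01. Any part of p53 or of DNA damage in these differences was not tested. Outside the assigned roles, the largest difference of all was that of *A530064D06Rik*, at 183 with vehicle and 1210 with IR-61 (4.70-fold). *Jakmip1*, a protein that binds Janus kinases and microtubules, gave 61.2 and 344 (4.01-fold), and the armadillo repeat gene *Armc2* 1221 and 6739 (3.93-fold). *Rnf150*, a RING finger protein, gave 673 and 3404 (3.61-fold). Bright genes here were *Ccdc78*, at 13179 and 39174 (2.12-fold), and the non-coding *AU022793*, at 8630 and 28041 (2.32-fold).

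Few of the genes chosen were in the pathways that were listed, and with 1.37% of all genes higher by 1 or more, lists of this size would hold few in any case. In 12 of 18 lists none of them appeared, among these mitosis, DNA replication, the clock, lysosome and autophagy, lipid metabolism, mitochondrial metabolism and myeloid surface receptors. For the clock list this follows from the names left out, since *Dbp* (2.66) is on it. The other lists held 1 or 2 each. *Mbd5* and *Hdac9* were 2 of 33 measured chromatin genes (6.06%), *P2ry12* and the potassium channel gene *Kcnj10* (1.15) 2 of 26 ion channels and purine receptors (7.69%), and *Pdgfc* 1 of 25 growth factors and receptors (4%). With normexp background correction *Kcnj10* differed by only 0.49 and *Pdgfc* by 0.89. In the ion channel and purine receptor list 3 genes, and in that of growth factors 1, were lower by 1 or more on the deposited values. *Itga4* was 1 of 27 matrix and adhesion genes, *Arhgap15* (1.29), a GTPase-activating protein for Rac, 1 of 31 actin and small GTPase genes, and *Oas2* 1 of 27 interferon-stimulated genes, and in each of the last 2 lists 2 genes were lower by as much. Relatives in the same list differed in both directions. Of the 27 interferon-stimulated genes 15 were above 0, among them *Oas2* (1.27), *Oas3* (0.86) and *Oasl2* (0.54), while *Isg15* (−0.79) and *Ifit1* (−0.77) were lower. Beside *Itga4* (1.26), *Itga6* was higher by 0.97 and *Itga5* lower, at −0.86. Beside *P2ry12* (2.05), *P2ry14* differed by 0.50 and *P2ry6* by −0.10, and the adenosine receptors *Adora2a* and *Adora2b* were lower, at −1.58 and −1.18.

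Some lists without a chosen gene stood above the median of all genes as a group. Of 28 measured mitosis genes 23 were above 0, with a median of 0.41, and of 31 replication and repair genes 24, with a median of 0.30, beside 60.1% of all genes above 0 and a median of 0.09. Relative to the median of all genes, the mitosis list was higher by 0.32 to 0.38 and the replication list by 0.21 to 0.23 under every scaling run. The clock list, which included *Dbp*, had 12 of 15 genes above 0 and a median of 0.32. Medians under 0 were found for cell cycle inhibitors and quiescence (−0.17), actin and small GTPase genes (−0.16), lysosome and autophagy genes (−0.11), lipid metabolism (−0.11), myeloid surface receptors (−0.05) and mitochondrial metabolism (−0.03). Without scaling, the brighter IR-61 array shifts every gene up by the same amount, and the median of every list is then positive.

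**Figure D3:**
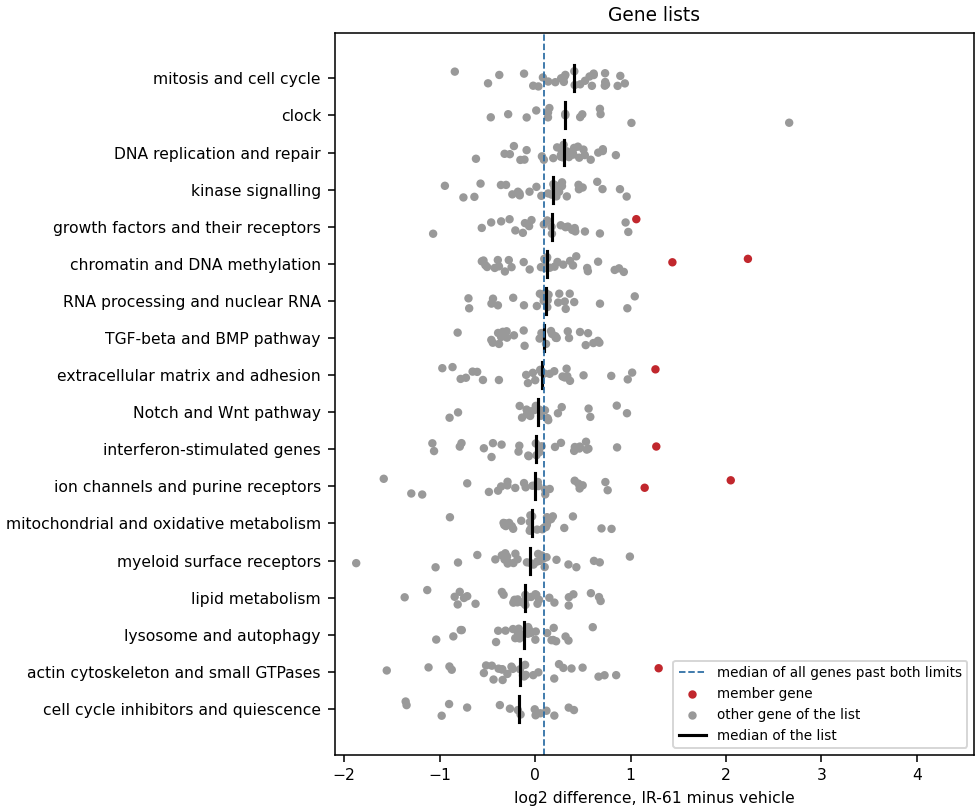
Log2 difference (IR-61 minus vehicle) of each measured gene in 18 lists, ordered by the median of the list (black bar), with the genes described in red and the median of all genes past both limits as a dashed line at 0.09. The red points are single genes within lists whose medians lie between −0.17 and 0.41, and the grey point far to the right in the clock list is *Dbp* at 2.66.

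The array held more than 1 named probe for 63 of the 184 genes, and for 56 of these another probe was well above background on both arrays. These 68 other probes did not choose the genes but were read on the same arrays. Of them, 55 were higher with IR-61 (80.9%), with a median of 0.35, while 42.8% of 4700 other probes of the remaining measured genes were higher, with a median of −0.08. A difference of 1 or more was found in 7 of the 68 (10.3%), beside 1.06% of the 4700. Among the 7 were those of *Hpgd* (2.22), *Nr2f1* (1.63), *Arhgap19* (1.45), *Prrx1* (1.32), *Slco2b1* (1.26) and *Sirpb1a* (1.13).

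Other probes also went against the choosing one. In 10 of the 56 genes at least 1 other probe was at or below 0. The widest gap was that of *Lcorl*, a nuclear receptor corepressor-like gene, whose choosing probe went from a signal of 489 to 1651 (1.27) while another went from 179 to 166 (−0.60). For *Rnf150*, with a choosing difference of 1.85, the other probes differed by 0.09 and 0.19, and for *Sorcs1*, a sorting receptor, by −0.33 beside 1.33. The other probe of *Armc2* differed by 0.36 beside 1.98, and that of *Siglecf* by 0.48 beside 1.41. *D2hgdh*, without a scaled value for its choosing probe, had −0.06 and −0.28 in its other probes. A gene with 1 probe has no such check, and 121 of the 184 genes were of that kind, *Slc40a1*, *P2ry12*, *Cxcr3*, *Mbd5* and *Snai2* among them. Whether probes of a gene read different transcripts was not tested.

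**Figure D4:**
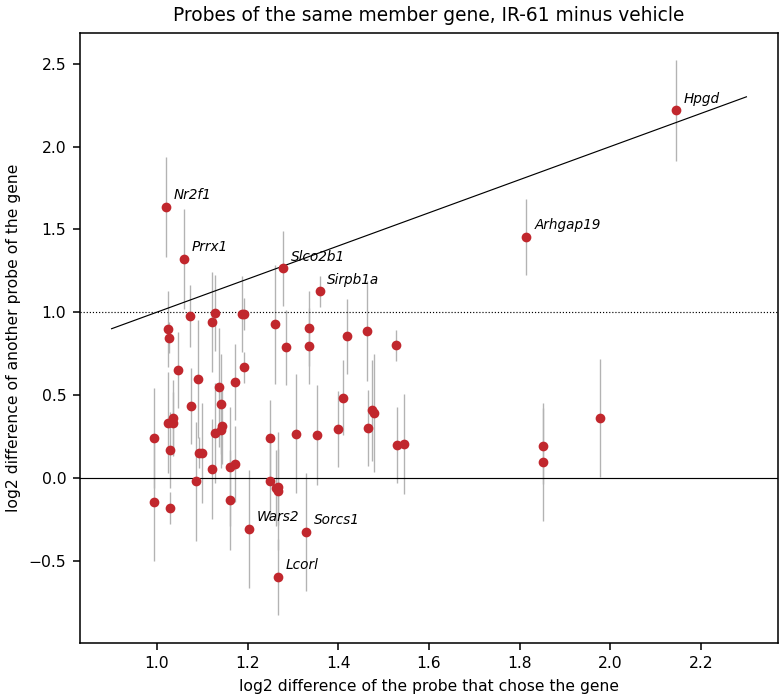
Log2 difference (IR-61 minus vehicle) of other measured probes of the same gene, for the genes reported, against that of the probe that chose it, with error bars for the SD expected from spots and a line of equality. *Hpgd*, *Nr2f1*, *Arhgap19*, *Prrx1*, *Slco2b1* and *Sirpb1a* lie at 1 or above, most points lie between 0 and 1, and *Lcorl* is lowest at −0.60.

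The positions of the genes showed few neighbours. Besides the SIRP genes, adjacent pairs were *Btaf1* with *Cpeb3* on chromosome 19 and *Gm1673* with *Nat8l* on chromosome 5. *Tmc3* and *Cfap161* on chromosome 7 had *Stard5* (0.45) and *Il16* (−0.32) between them, and *Fam78b* and *Aldh9a1* on chromosome 1 had *Uck2* (0.06) and *Tmco1* (0.22). The genes between such pairs thus did not differ alike. By chromosome, the share was highest on chromosome 3, with 17 of 651 measured genes (2.61%), 3 of them the SIRP genes, and lowest on chromosome 12, with 2 of 443 (0.451%), beside 1.32% over all measured genes. These are the extremes of 20 chromosomes and were not tested.

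Promoters were at hand in RefSeq (assembly GRCm38.p6, 250 bases before to 50 after the start) for 139 of the 184 genes. They held fewer CpG dinucleotides than those of other measured genes, with a median of 10 against 18 in 300 bases and a GC content of 55.7% against 59.3%. Over all promoters, measured or not, both were lower still, with a median of 7 and a GC content of 52.7%. The genes were also dimmer than all genes past both limits, with a median deposited value of 9.06 against 10.48, and the part of signal level in this was not tested. The GC-box core GGGCGG, on either strand, was found in 47.5% of the 139 genes and in 62.3% of 10986 other measured genes. Of 18 motifs searched on both strands, the interferon element (GAAA, any 2 bases, GAAA) stood at 8.63% of the genes (12) against 3.88% of other measured genes, and 3 of its 12 genes were the SIRP genes shown above. Counted by single promoters, it was in 6.63% of those of the genes described and in 3.44% of all promoters. By genes, TATAAA was found in 16.5% against 10.7%, the FOXO core GTAAACA in 5.76% against 3.33%, and the D-box TTATGTAA in 2.16% (3 genes) against 0.856%. The hypoxia element ACGTGC was found in 5.04% against 8.77%, and the ATF4 element TGATGNAA in none of the 139 against 3.16%. The ETS and PU.1 core AGAGGAAG was found in 6.47% against 5.45% of genes, and in 4.97% against 4.55% of single promoters. By single promoters of the genes described and of all genes, the GC-box core stood at 41.4% and 35.7%, TATAAA at 13.3% and 13.6%, and the FOXO core at 4.42% and 3.65%. The D-box stood at 1.66% and 0.938%, the hypoxia element at 3.87% and 5.91%, and the ATF4 element was in 3.97% of all promoters. Such matches say only that these letters are in the window.

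To show such matches in genes with large differences or immune roles, part of 3 promoters is printed on the minus strand of the genome, which is the strand of these genes, 5′ to 3′. Capitals mark the interferon element in *Inhbb* and the ETS and PU.1 core, here as its reverse complement, in *Cd72* and *Cxcr3*. The match begins 198 bases before the start site in *Inhbb*, 48 in *Cd72* and 15 in *Cxcr3*.
Inhbb, chr1:119422397-119422486: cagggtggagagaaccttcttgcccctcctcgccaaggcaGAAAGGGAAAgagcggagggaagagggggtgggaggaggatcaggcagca
Cd72, chr4:43454627-43454714: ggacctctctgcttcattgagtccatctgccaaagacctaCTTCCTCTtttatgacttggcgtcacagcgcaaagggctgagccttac
Cxcr3, chrX:101734148-101734202: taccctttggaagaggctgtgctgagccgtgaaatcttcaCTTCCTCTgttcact
*Spi1*, the gene of PU.1 itself, had a signal of 1002 with vehicle and 789.9 with IR-61, lower on both scales, while *Cd72* (1106 and 3261) and *Cxcr3* were higher. Any part of PU.1 in these differences was not tested.

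The size of the differences depended on the scaling of the arrays, while their direction was fixed by the choice of the genes. The median was 1.15 with median scaling, 1.20 with quantile normalization and 1.19 with cyclic loess. Normexp background correction, which adds an offset of 50 to every signal, lowered it to 1.03 and kept 98 of the genes at 1 or more. Genes with low signals such as *Hpgd* and *P2ry12* were lower under it. *Hpgd* went from 2.14 to 1.20 and *P2ry12* from 2.05 to 1.33, whereas the bright *Fabp7* stood at 1.73 and 1.80 and *Adgre1* at 1.03 and 1.09. The lowest value under normexp was 0.41, in *Lurap1l*, whose signals were 50.7 and 155.

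**Figure D5:**
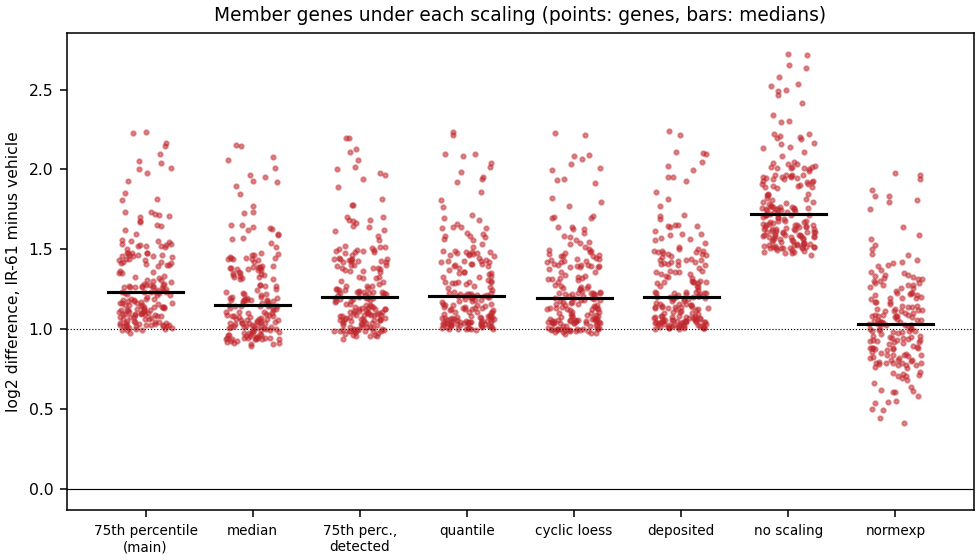
Log2 difference (IR-61 minus vehicle) of each of the genes described under 8 ways of processing, with a bar at the median and a dotted line at 1. The genes were chosen for a difference of at least 1 on the deposited values. Medians lie between 1.03 (normexp) and 1.23 (75th percentile) except without scaling, where the brighter IR-61 array gives 1.72.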

How the data were processed

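Cyanine-3-labelled RNA of RAW264.7 cells treated with vehicle or IR-61 for 24 h was hybridized to 1 Agilent array each, design 026655. The authors deposited spot intensity, background-subtracted and detrended within the array (Feature Extraction 11.0.1.1 and scanner G2505C per the file headers, while the submitters' processing notes name 11.0.0.1), and 0/1 flags. They also deposited log2 values with equal quartiles in both arrays (4.59 and 10.66), as quantile normalization gives. How the log2 values were made is not given in the sources used here.

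The 184 genes were chosen on the log2 values, and the values given are log2 processed intensities without outlier spots (124 and 139), averaged over spots of a probe, minus the 75th percentile of the array. Of 39429 probes 27234 were named by RefSeq accession without version through the GRCm38.p6 gene table. Coordinates are those of its promoter table, since the array design was annotated on mm9. Of the probes, 77.7% (vehicle) and 81.3% (IR-61) were well above background, and no spot was saturated. The number of arrays limits the precision.

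The genes, pathway lists and rules were chosen with earlier results of these data known. Genes were named as the 20 largest differences, the 10 brightest probes, the 5 nearest on either side of the threshold, the first of each list or family, the 3 widest gaps between probes and the gene with several spots, and some of these are not reported here. The other genes named, and the roles, were chosen after their values were seen. With 1 array per condition no test was run. The steps were tested on simulated data. For normexp, 4 spots of the IR-61 array with a local background above their signal took the array's median background instead, a step chosen after seeing the data. Python 3.11.15 (numpy 2.4.6, pandas 2.3.3, statsmodels 0.14.6, matplotlib 3.10.9) and R 4.3.3 (limma 3.58.1) were used.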

Additional observations from a re-analysis of the deposited data

Results flagged for a closer look

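Probes without a gene name here were used in no comparison above. Of 5850 such probes past both limits, 83 were higher with IR-61 by 1 or more on the deposited log2 scale (1.42%), close to the 1.37% of named genes, and 70 were lower by as much. The largest scaled difference among the 83 was 2.15. They were singled out because they carry signal outside the named genes, and which transcripts they read was not analysed here.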

How the results depend on the processing

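The number of genes chosen depended on the rule. It was 184 as described, 105 with deposited values of at least 8, 26 at a difference of at least 3-fold, 540 with no filter on values and flags, 1577 with no scaling between the arrays (183 of them shared) and 117 with normexp (98 shared). It stayed within 1.5 times in the other settings, from 125 where every probe of a gene had to pass to 219 with values of at least 5. Of the 125, 121 had 1 probe and passed by construction, and only 4 of the 63 genes with several probes passed. The median difference was 1.23 as described and 1.72 with no scaling, and from 1.03 (normexp) to 1.24 (trend over rows and columns removed) otherwise. With the mean over the probes of a gene it was 1.16, and the lowest value was −0.17, in *D2hgdh*. With no scaling all 41 of the named genes that the rule had chosen moved by more than the spread expected from spots, 18 did so with normexp and 13 with the mean over probes. No paired analysis was possible because there was a single array for vehicle and a single one for IR-61, which also meant that none could be left out. The SD between spots of dim probes was 0.27 and 0.24 in log2 units, and the spread between cultures could not be measured.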
